A study of Mus musculus with 8 samples.

Results

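Semaphorins are secreted or membrane-bound signalling proteins, and plexins are the membrane receptors that most of them bind. These families were followed in haematopoietic stem cells (HSCs) sorted from mouse bone marrow, through the 20 semaphorin genes, 9 plexin genes and 2 neuropilin genes of the deposited gene tables. The 31 genes were all those with an exon model whose names run from Sema3 to Sema7, Plxna to Plxnd, or Nrp1 and Nrp2, out of 22050 genes. Sema4f was listed as 2 numbered rows on separate contigs, and their reads were summed. The series compared P5 with 4 weeks: 4 libraries from pups at postnatal day 5 and 4 libraries from mice at 4 weeks of age, all of the strain C57BL/6 and, as far as the labels say, untreated. HSCs were gated as CD150+ CD48- EPCR+ Lineage-, and 100 cells went into each library. Nothing in the labels says whether an age was sampled from several animals, so the p-values measure the spread between these libraries, which may in part be technical. Reads were counted over exons, and levels are given as normalised CPM, exon reads scaled to the size of the library by TMM factors.

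Semaphorins were first known as guidance cues of growing axons and also act on blood vessels and immune cells. A plexin that binds its semaphorin switches on a GTPase-activating domain in its own cytoplasmic part, which turns off Rap GTPases, loosens integrin adhesion and rearranges actin. Most secreted class 3 semaphorins cannot bind plexins alone and need a neuropilin as a partner, and neuropilins also bind VEGF family growth factors. Sema7a is held to the membrane by a GPI anchor and acts through Plxnc1 and through integrins that contain Itgb1.

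The start regions of 3 genes on which the results turn are shown first: Sema7a, the tested semaphorin with the largest difference between the ages, Plxnc1, its plexin receptor, and Plxnd1, the plexin that was higher at P5. Each window runs from 250 bases before to 50 bases after a start listed by RefSeq, on GRCm38.p6. It is written 5′ to 3′ on the gene's own strand. The listed start need not be the outer end of the gene positions given below. Those begin outside the window for Sema7a (57939596) and Plxnd1 (115995339), and inside it for Plxnc1 (94945015). Capitals mark GC boxes (GGGCGG on either strand). The window of Sema7a is chr9:57939862-57940161 (plus strand), that of Plxnc1 chr10:94944796-94945095 (minus strand) and that of Plxnd1 chr6:115994956-115995255 (minus strand).
Sema7a: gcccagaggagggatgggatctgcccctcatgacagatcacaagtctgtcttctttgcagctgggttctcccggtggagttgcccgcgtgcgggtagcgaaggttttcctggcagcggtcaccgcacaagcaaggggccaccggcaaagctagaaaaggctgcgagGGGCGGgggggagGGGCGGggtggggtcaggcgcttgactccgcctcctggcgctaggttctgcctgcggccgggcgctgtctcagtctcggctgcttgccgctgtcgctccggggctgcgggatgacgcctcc
Plxnc1: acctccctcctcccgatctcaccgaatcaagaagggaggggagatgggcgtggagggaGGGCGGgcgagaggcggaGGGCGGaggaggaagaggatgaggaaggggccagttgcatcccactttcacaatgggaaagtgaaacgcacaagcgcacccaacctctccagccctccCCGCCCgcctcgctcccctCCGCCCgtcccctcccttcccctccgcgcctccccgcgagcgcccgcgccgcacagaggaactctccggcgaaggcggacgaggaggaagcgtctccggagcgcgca
Plxnd1: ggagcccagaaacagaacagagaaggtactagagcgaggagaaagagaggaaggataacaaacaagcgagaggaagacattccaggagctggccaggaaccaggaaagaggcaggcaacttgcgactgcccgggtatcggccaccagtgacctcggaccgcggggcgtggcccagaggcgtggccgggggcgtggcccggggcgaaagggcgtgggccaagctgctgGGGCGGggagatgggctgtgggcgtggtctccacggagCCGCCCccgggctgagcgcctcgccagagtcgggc
The 3 windows hold 2, 4 and 2 GC boxes, and 23, 30 and 23 CpG dinucleotides, where the median of all 32851 windows of this length is 7. RefSeq windows were matched for 26 of the 31 genes, 37 windows in all. Of these, 27 hold a GC box, against 35.7% of all windows. The CCAAT box (CCAAT) is in 7 of the 37 and in 37.4% of all, the E-box (CACGTG) in 3 and 7.15%, the ETS core (CCGGAA) in 4 and 14.9%, and the RUNX motif (TGTGGT) in 5 and 16.8%. The GATA motif (AGATAA, 11.2% of all windows) and the TATA box (TATAAA, 13.6%) are in none of the 37 windows. All motifs were searched on both strands, and in the 3 printed windows no other motif was found, so none overlaps a GC box. The GC box was the motif shared by Sema7a and Plxnc1, lower at P5, and by Plxnd1, higher at P5.

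Exon reads numbered between 6142760 and 7470777 per P5 library and between 5775130 and 7212446 per 4-week library. Reads were found for all 9 marker genes listed for HSCs. Slamf1, Procr and Cd48 among them encode proteins of the sort gate, so their values are no independent check of HSC identity. Slamf1, which encodes CD150, averaged 33.8 ± 4.69 CPM at P5 and 36.6 ± 4.40 at 4 weeks, and Procr, which encodes EPCR, 55.0 ± 7.996 and 57.1 ± 8.03 (± SD over 4 libraries per age). Of the same list, Ly6a, which encodes Sca-1, fell 2.90-fold at P5, to 29.6 ± 3.998 CPM, against 85.9 ± 17.8 CPM in 4-week libraries (± SD over 4 libraries per age, adjusted p = 1.49e-05). Mecom was 1.28-fold higher (adjusted p = 0.0106), and the other 7 markers did not pass the test. Hlf was the most abundant of the markers, and Cd48, whose protein was gated as absent, lay near 5 CPM at both ages. P5 replicate 2 stood apart by genes of monocytes and macrophages: it held 1017 of the 1128 Csf1r reads and 414 of the 421 Cx3cr1 reads at P5. Each of the 8 monocyte or macrophage markers in the tables had reads when all libraries were summed, and Lyz2 was the most abundant. The summed level of these markers was 497 CPM in P5 replicate 2. It was 180 to 215 CPM in the other P5 libraries and 167 to 191 CPM at 4 weeks. At 4 weeks, replicate 4 held 364 of the 374 reads of Cxcl12, a chemokine of marrow stroma. Y-linked exon reads numbered 2293 and 2062 in P5 replicates 2 and 4 and at most 2 in the other pair of P5 libraries, against 1532 to 2214 at 4 weeks. The P5 libraries thus did not all come from the same animal or the same pool of animals.

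Among the tested members, Sema7a and Plxna4 fell most at P5, and Plxnd1 was the receptor that rose. Of the 20 semaphorin genes, 13 had enough reads to be tested. At P5, Sema4d, Sema4f and Sema6b were higher and Sema7a lower. Of the 11 receptor genes, 9 were tested. Plxnd1 was higher, and Plxna4, Plxnb2 and Plxnc1 were lower. Calls rest on edgeR's quasi-likelihood test with a Benjamini-Hochberg adjusted p under 0.05 over 12235 genes, of which 16.5% were called, 7.99% higher and 8.55% lower at P5. The 4 called of 13 semaphorins and 4 called of 9 receptors stand against that background. The median log2 fold change was 0.27 over the tested semaphorins and -0.18 over the tested receptors, against -0.0042 over all genes tested. The CPM of the ages did not overlap for 4 of the 13 semaphorins and 4 of the 9 receptors, which are the 8 called members, beside 21.2% of all tested genes. In such bulk libraries, fewer cells that express a gene and less RNA per cell cannot be told apart.

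**Figure D1:**
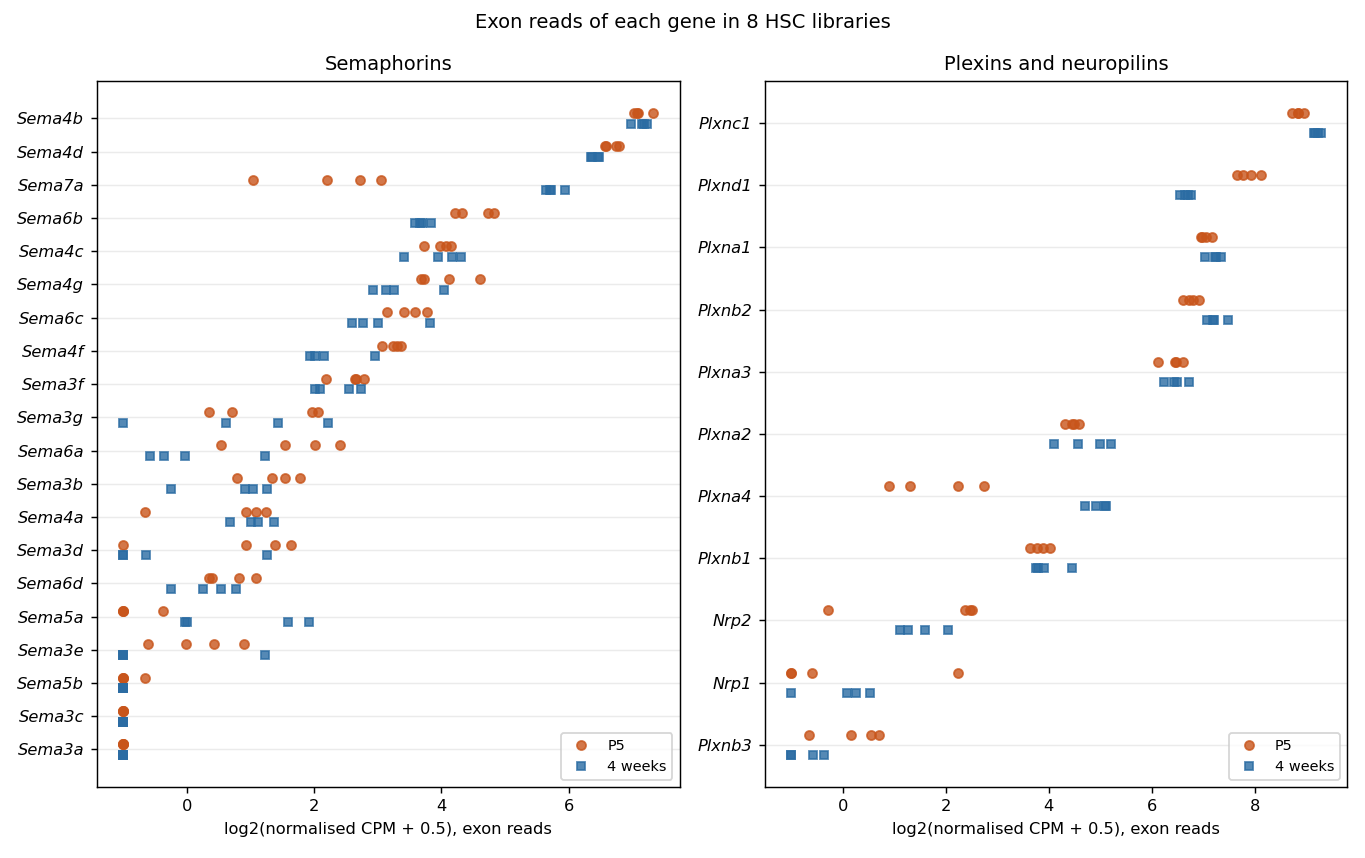
Exon reads of each semaphorin gene (left) and each plexin and neuropilin gene (right), as log2 of normalised CPM + 0.5, with 1 point per library, P5 as circles and 4 weeks as squares. The ages are far apart for Sema7a, Plxna4 and Plxnd1, and overlap for most other genes.

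Among the semaphorins, the GPI-anchored Sema7a (chromosome 9, 57939596 to 57962865, GRCm38.p6, as for all positions given) had 4.09, 1.55, 7.76 and 6.06 CPM in the 4 P5 libraries, against 49.6, 60.8, 52.5 and 51.8 CPM at 4 weeks. Every P5 library lay below every 4-week library by a wide margin. It fell 11.02-fold at P5 (log2 fold change -3.46, SE 0.284, adjusted p = 3.82e-06). These values rest on 131 exon reads at P5 and 1353 at 4 weeks. Among them, 50 reads at P5 and 525 at 4 weeks spanned a junction between exons, 38.2% and 38.8% of the exon reads, a similar share at both ages. The summed level of 8 megakaryocyte markers was 337 to 438 CPM at P5 and 444 to 573 CPM at 4 weeks. Itgb3 had the largest difference of mean CPM among them. Each of the 8 had reads when all libraries were summed. Of 7 tested, 2 were higher and 2 lower at P5, beside 7.99% and 8.55% of all genes. The 2 lower were Itgb3, 7.89-fold (mean 13.95 CPM at P5, 109.6 at 4 weeks), and Itga2b, 1.89-fold. The 2 higher were Selp, 5.74-fold, and Gp9, 2.50-fold. Vwf, the most abundant of the 8, did not pass the test (adjusted p = 0.396). The part of these markers in the falls of Sema7a and Plxna4 was not tested.

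The class 6 semaphorins are transmembrane ligands of class A plexins. Sema6b (chromosome 17, 56123085 to 56140343) had 19.5, 27.8, 26.2 and 18.05 CPM at P5, against 12.5, 11.5, 12.1 and 13.7 CPM at 4 weeks. All P5 libraries were above all 4-week libraries, and the gene was 1.83-fold higher (log2 fold change 0.87, SE 0.177, adjusted p = 0.00413). Sema6a had 0.954, 4.82, 2.42 and 3.53 CPM at P5, against 0.474, 0.172, 1.85 and 0.277 CPM at 4 weeks. The ages overlapped through P5 replicate 1 and 4-week replicate 3, and the difference did not pass the test (log2 fold change 2.07, SE 0.690, adjusted p = 0.0575). It passed without P5 replicate 1 (adjusted p = 0.0315) or without 4-week replicate 3 (adjusted p = 0.0139). Sema6c had 8.32 to 13.2 CPM at P5 and 5.51 to 13.6 CPM at 4 weeks, which overlap (adjusted p = 0.404).

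Class 4 semaphorins are transmembrane ligands of class B plexins, and Sema4d, known as CD100, is also shed from immune cells. Sema4d (chromosome 13, 51685529 to 51793678) had 95.3, 106, 94.5 and 111 CPM at P5, against 82.3, 88.2, 87.2 and 81.0 CPM at 4 weeks. The ages did not overlap, but the difference was small, at 1.20-fold higher (log2 fold change 0.26, SE 0.0851, adjusted p = 0.0493). This call was lost without P5 replicate 2, 3 or 4 (adjusted p = 0.0969, 0.0546 and 0.139) and without 4-week replicate 1, 3 or 4 (adjusted p = 0.122, 0.081 and 0.127).

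Sema4f (chromosome 6, 82911884 to 82939769) had 9.82, 9.33, 8.89 and 7.90 CPM at P5, against 3.95, 7.24, 3.53 and 3.32 CPM at 4 weeks. It was 2.00-fold higher (log2 fold change 1.00, SE 0.290, adjusted p = 0.0314). The nearest 4-week library, replicate 2, came close to the P5 libraries. None of its exon reads was uniquely mapped, and its 2 rows held 144 and 99 reads at P5 and 54 and 58 at 4 weeks. The call was lost without P5 replicate 1, 2 or 3 (adjusted p = 0.0669, 0.0554 and 0.0651) and without 4-week replicate 1, 3 or 4 (adjusted p = 0.0836, 0.083 and 0.0907).

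The most abundant semaphorin, Sema4b, had 129.6 to 160.1 CPM at P5 and 126 to 149 CPM at 4 weeks (log2 fold change -0.0069, SE 0.0884, adjusted p = 0.97). Sema4c had 12.7 to 17.3 CPM at P5 and 10.1 to 19.3 CPM at 4 weeks (adjusted p = 0.979). Sema4g had 12.3 to 23.9 CPM at P5 and 7.07 to 15.96 CPM at 4 weeks (log2 fold change 0.70, SE 0.283, adjusted p = 0.115), and passed the test without 4-week replicate 1 (adjusted p = 0.0266). Sema4a, with at most 2.07 CPM in any library, did not pass either (adjusted p = 0.741). For these 4 genes the libraries of the ages overlapped.

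Of the secreted class 3 semaphorins, Sema3b, Sema3f and Sema3g were tested and none passed (adjusted p = 0.396, 0.669 and 0.851). Sema3f, the most abundant, averaged 5.48 ± 1.00 CPM at P5 and 4.69 ± 1.27 at 4 weeks (± SD over 4 libraries per age). Sema3a and Sema3c had no exon read in any library, which allows a level of up to 0.111 CPM over the P5 libraries and 0.119 CPM over the 4-week libraries (3 counts over a group, counting error only). Intron reads were listed for both, 118 at P5 and 126 at 4 weeks for Sema3a, and 14 and 27 for Sema3c. Sema3d had 41 reads at P5 and 13 at 4 weeks, and 12 of those 13 were in replicate 1. Sema3e had 20 reads at P5 and 11 at 4 weeks, all 11 of them in replicate 3. The class is thus hardly present as exon reads at either age.

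Sema5a, a transmembrane semaphorin with thrombospondin repeats, had 2, 0, 0 and 0 exon reads at P5 and 3, 19, 3 and 18 at 4 weeks. Per library size its summed reads were 22.99-fold lower at P5, with a counting interval of 5.99 to 196 (exact binomial, 95%). The gene had too few reads for the main test, and with no filter on low counts it was called lower (log2 fold change -4.22, SE 1.11, adjusted p = 0.0157). Its intron reads were 71 at P5 and 67 at 4 weeks. Sema5b had 1 exon read in all libraries, and Sema6d had 30 reads at P5 and 20 at 4 weeks.

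Among the receptors, class A plexins serve class 3, class 5 and class 6 semaphorins. Plxna4 (chromosome 6, 32144543 to 32588192) had 1.36, 6.22, 4.20 and 1.97 CPM at P5, against 29.5, 33.4, 25.6 and 34.1 CPM at 4 weeks. No P5 library came near a 4-week library, and the gene fell 9.04-fold at P5 (log2 fold change -3.18, SE 0.327, adjusted p = 2.17e-05). The other class A plexins did not pass the test. Plxna1 averaged 131 ± 8.62 CPM at P5 and 149 ± 13.4 at 4 weeks, Plxna2 21.6 ± 1.64 and 26.9 ± 8.70, and Plxna3 85.3 ± 11.5 and 88.8 ± 12.3 (± SD over 4 libraries per age, adjusted p = 0.175, 0.327 and 0.792). For all 3 genes the ages overlapped. These p-values do not show that levels were equal.

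Plxnd1 is a receptor of Sema3e in blood vessels, where it binds without a neuropilin, and it also binds Sema4a. Plxnd1 (chromosome 6, 115954811 to 115995339) had 244, 276, 199.6 and 217 CPM at P5, against 92.9, 104, 108 and 99.9 CPM at 4 weeks. The lowest P5 library was well above the highest 4-week library, and the gene was 2.32-fold higher (log2 fold change 1.21, SE 0.101, adjusted p = 4.26e-06). Each of 11 endothelial markers had reads when all libraries were summed. Their summed level, with Vwf the most abundant, was 662 to 852 CPM at P5 and 620 to 755 CPM at 4 weeks, which overlap. Of 10 tested, 3 were higher and none lower at P5, beside 7.99% and 8.55% of all genes. The 3 higher were Tek, Cldn5 and Cdh5. The other tested markers did not pass: Pecam1, Kdr, Flt4, Emcn, Esam, Stab2 and Vwf (adjusted p between 0.0745 and 0.96). Vwf, also a listed megakaryocyte marker, averaged 269 CPM at P5 and 302 CPM at 4 weeks. Cdh5, the endothelial cadherin, had 42, 125, 68 and 50 reads at P5 and 0, 0, 1 and 0 at 4 weeks, an average of 10.8 CPM at P5. The part of such cells in the Plxnd1 result was not tested.

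Plxnc1, the plexin that binds Sema7a, had 459, 458, 498 and 421 CPM at P5, against 597, 566, 622 and 578 CPM at 4 weeks (chromosome 10, 94790866 to 94945015). It fell 1.29-fold at P5, with no overlap (log2 fold change -0.36, SE 0.0733, adjusted p = 0.00396). Plxnb2, a receptor of class 4 semaphorins (chromosome 15, 89155546 to 89182018), had 111, 120.1, 106 and 96.6 CPM at P5, against 145, 178, 133 and 147 CPM at 4 weeks. It fell 1.39-fold, again with no overlap (log2 fold change -0.48, SE 0.101, adjusted p = 0.00533). Plxnb1, a receptor of Sema4d, had 11.97 to 15.7 CPM at P5 and 13.0 to 21.4 CPM at 4 weeks, which overlap (adjusted p = 0.612). Plxnb3 had 19 reads at P5 and 3 at 4 weeks and was not tested.

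The neuropilins were scarce. Nrp2 had 38, 30, 2 and 36 reads at P5 and 12, 21, 15 and 12 at 4 weeks, and the difference did not pass the test (log2 fold change 0.67, SE 0.574, adjusted p = 0.477). Nrp1 had 0, 27, 1 and 0 exon reads at P5 and 6, 4, 0 and 4 at 4 weeks, too few to be tested. The P5 library with 27 reads was replicate 2, which also held 123 of the 137 Nrp1 intron reads at P5. That library carried the high monocyte and macrophage markers given above, also 187 of the 196 C1qb reads at P5. Their part in the Nrp1 reads was not tested.

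Between genes, levels were compared as CPM per kb of exon. Sema4b led the semaphorins at both ages, with 33.8 ± 3.34 at P5 and 34.0 ± 2.42 at 4 weeks (CPM per kb, ± SD over 4 libraries per age). Sema7a had 1.45 ± 0.793 at P5, rank 8 of the 20 semaphorins, and 15.96 ± 1.46 at 4 weeks, rank 2, above Sema4d with 11.6 ± 0.485. Behind Sema4d at P5 came Sema6b with 4.99 ± 1.05, Sema4g with 3.82 ± 1.26 and Sema4c with 3.05 ± 0.392, neighbours whose spreads overlap. Plxnc1 led the receptors, with 56.3 ± 3.89 at P5 and 72.4 ± 3.02 at 4 weeks. Plxnd1 was next at P5, with 33.9 ± 4.84, and rank 4 at 4 weeks, with 14.6 ± 0.916. There it lay behind Plxnb2 with 21.4 ± 2.70 and beside Plxna1 with 16.5 ± 1.48 CPM per kb.

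**Figure D2:**
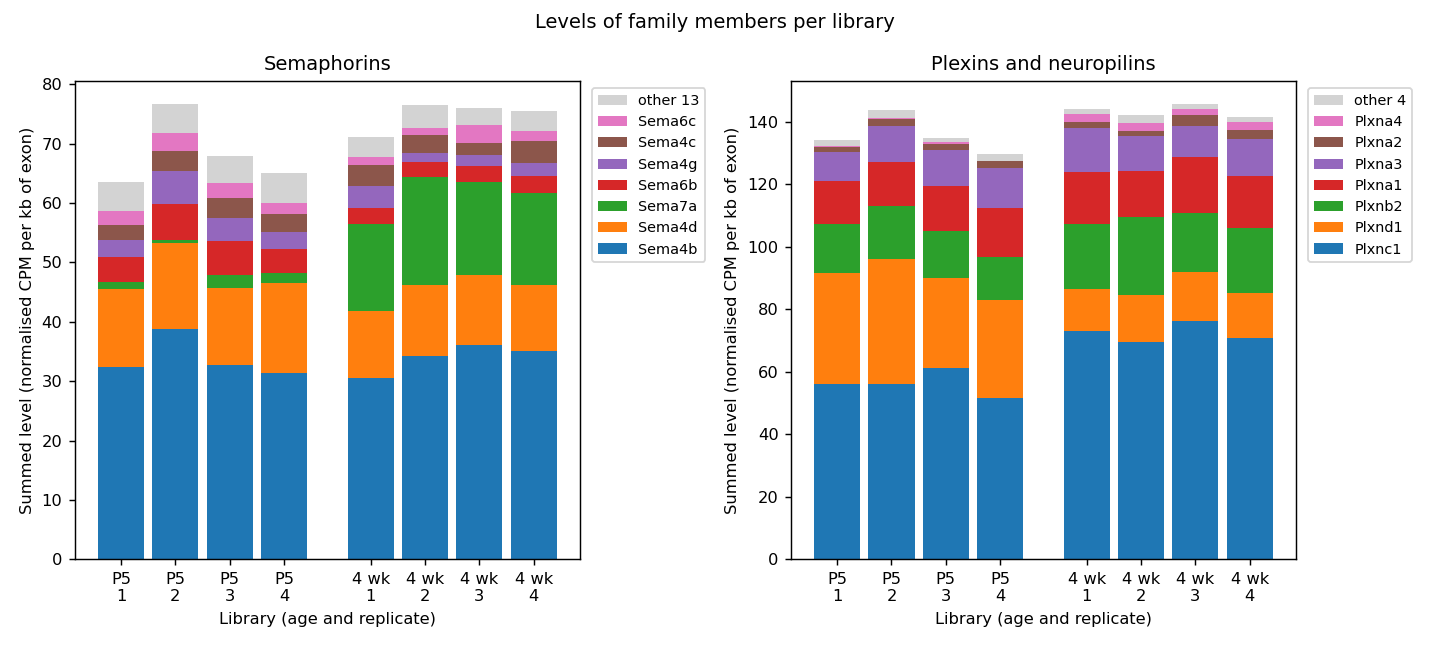
Summed level of semaphorins (left) and of plexins and neuropilins (right) in each library, in normalised CPM per kb of exon, stacked by gene, with the 7 most abundant genes in colour and the others in grey. Sema7a is a thin band at P5 and a wide one at 4 weeks, and the band of Plxnd1 is wider at P5.

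All semaphorin genes together came to 338 ± 27.5 CPM at P5 and 343 ± 10.9 at 4 weeks (± SD over 4 libraries per age). All receptor genes came to 1062 ± 42.2 CPM at P5 and 1156 ± 18.2 at 4 weeks, and these sums did not overlap between the ages. Summed per kb of exon, the receptors did overlap, at 129.5 to 143.7 at P5 and 141.5 to 145.7 at 4 weeks. Sema7a made up 1.47% ± 0.823 of semaphorin CPM at P5 and 15.6% ± 1.12 at 4 weeks. Plxnd1 made up 22.01% ± 2.56 of receptor CPM at P5 and 8.74% ± 0.523 at 4 weeks, and Plxnc1 43.2% ± 2.74 and 51.1% ± 1.33. Per kb of exon, the mean shares at P5 and 4 weeks were 2.17% and 21.3% for Sema7a. They were 24.96% and 10.2% for Plxnd1, and 41.5% and 50.5% for Plxnc1.

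Intron reads gave a second reading of the same libraries. Such reads can come from RNA not yet spliced, but their source was not tested here. Sema3a and Sema3c had intron reads without any exon read. In a fit over 13180 genes by intron reads, 17.9% were called, 9.01% higher and 8.86% lower at P5. By these reads 1 semaphorin was higher and 2 were lower, and 2 receptors were higher and 3 lower. Sema7a fell 7.498-fold at P5 by intron reads (adjusted p = 2.63e-05) and Plxna4 7.53-fold (adjusted p = 0.000228). Plxnd1 was 2.40-fold higher (adjusted p = 0.00478), and Plxnc1 and Plxnb2 fell 1.26-fold and 1.61-fold (adjusted p = 0.0159 and 0.0456). Sema4f was 3.56-fold higher (adjusted p = 0.00649). Sema6b and Sema4d did not pass by intron reads (adjusted p = 0.277 and 0.286). The long non-coding RNA gene Plxna4os1 lies within Plxna4, and since the libraries do not mark strand their reads cannot be told apart where they overlap. In all, 15 of the 31 members overlap another RefSeq gene and share this limit, among them Plxna2, which overlaps Gm46202.

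Exon and intron reads parted for Sema4b. Its intron reads were 372, 501, 456 and 501 at P5 and 797, 868, 817 and 876 at 4 weeks, with no overlap, and fell 1.76-fold at P5 (adjusted p = 0.000935), while its exon reads did not differ past the threshold. Over all genes, introns took 60.1% to 68.2% of the reads of a P5 library, lowest in replicate 1, and 66.9% to 68.7% at 4 weeks. For Sema4b, introns took 32.7% ± 3.70 of all reads at P5, against 48.7% ± 2.55 at 4 weeks (± SD over 4 libraries per age). That difference had a two-sided exact permutation p = 0.0286, the smallest that 70 splits allow, and adjusted p = 0.485 over the 17 members compared. A gene that stands alone at this smallest p cannot pass a correction over 17 members. The adjusted p therefore cannot decide for Sema4b, nor for Plxna2 below. Sema4b was the 1 gene of the 17 whose intron shares did not overlap. Plxna2 was 1.64-fold higher at P5 by intron reads (adjusted p = 0.0405), and its exon reads leaned the other way (log2 fold change -0.32). Its intron share was 79.6% ± 3.52 at P5 and 69.5% ± 5.66 at 4 weeks (± SD over 4 libraries per age, exact permutation p = 0.0571, adjusted p = 0.485).

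**Figure D3:**
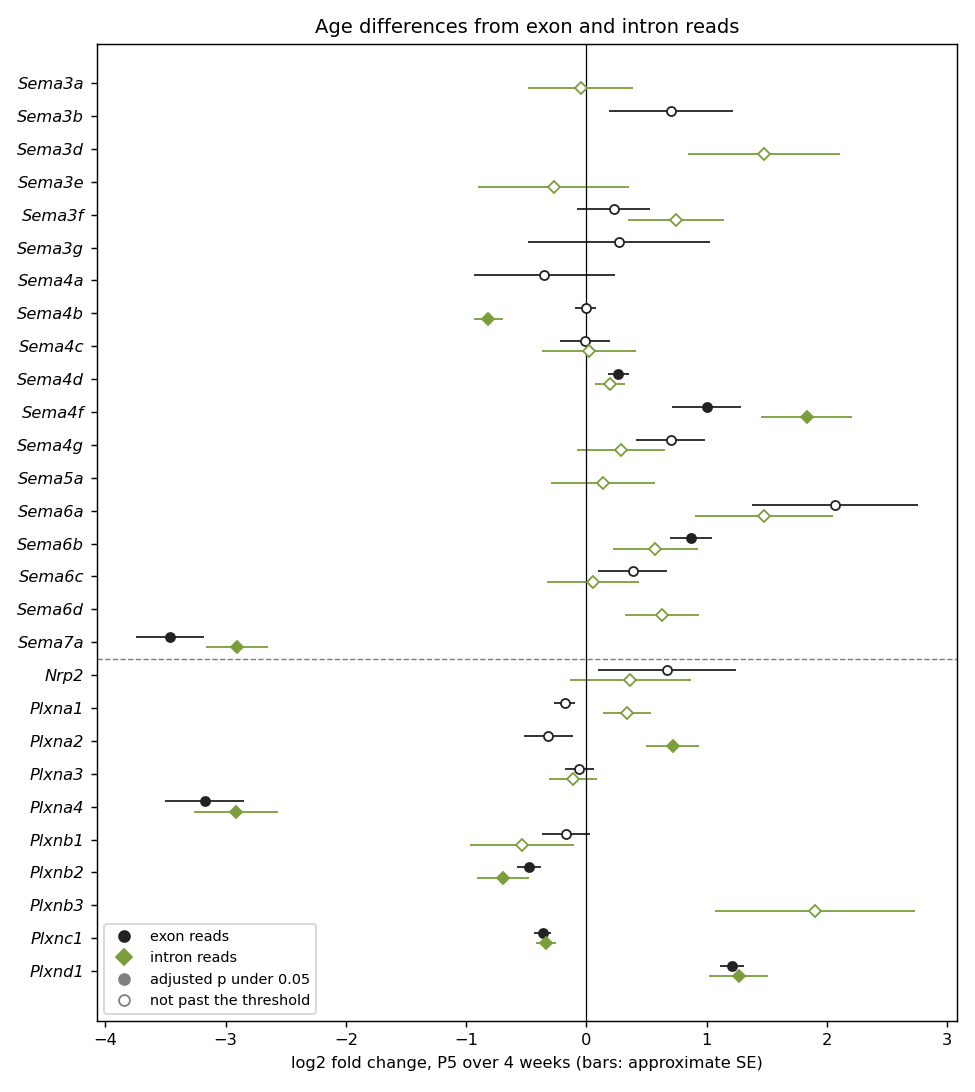
Log2 fold change, P5 over 4 weeks, from exon reads (circles) and intron reads (diamonds) for each gene with a tested value, semaphorins above the dashed line and receptors below it. Bars are approximate SE and filled symbols have an adjusted p under 0.05. Sema7a, Plxna4 and Plxnd1 moved alike in both read classes, and Sema4b only by intron reads.

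Ligands and the receptors they are known to bind did not all move together. For Sema7a, lower at P5, Plxnc1 was lower too. Itgb1, the integrin subunit of the other Sema7a receptors, was higher, at 332 ± 7.07 CPM in P5 libraries, against 253 ± 17.5 CPM in 4-week libraries (± SD over 4 libraries per age, 1.31-fold, adjusted p = 0.00215). Itga1, another integrin gene among the partners given below, had 2 exon reads at P5 and 11 at 4 weeks, too few to be tested. The level of Itgb1 alone therefore does not give the level of a whole integrin receptor. For Sema6b, higher at P5, its receptor Plxna4 was lower. For Sema4d, slightly higher, Plxnb1 did not pass the test, Plxnb2 was lower, and Cd72, a lymphocyte receptor of Sema4d, fell 3.29-fold, to 3.25 ± 1.36 CPM at P5, against 10.8 ± 3.23 at 4 weeks (± SD over 4 libraries per age, adjusted p = 0.0046). For Plxnd1, higher at P5, the ligands Sema3e and Sema4a had at most 1.85 and 2.07 CPM in any library. Cells outside the sort were not measured, so levels of ligands from other marrow cells were not analysed here.

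Of 69 partner genes of the pathway, 51 were tested, and 13 were higher and 9 lower at P5, beside the 7.99% and 8.55% of all genes. Among other semaphorin receptors and co-receptors, 3 of 5 tested were higher and 1 lower. Besides Itgb1 and Cd72, Ptk7, a pseudokinase that joins plexins, was 1.76-fold higher (adjusted p = 0.000107). Tyrobp, the adaptor DAP12 that pairs with Plxna1 in myeloid cells, reached 10.1 ± 2.95 CPM in P5 libraries, against 2.42 ± 0.838 CPM in 4-week libraries, and was 4.12-fold higher (± SD over 4 libraries per age, adjusted p = 0.000809). Of its 272 reads at P5, 93 were in replicate 2, the library with high monocyte and macrophage markers. The other P5 libraries had 7.92 to 9.17 CPM of Tyrobp, and the 4-week libraries 1.51 to 3.48 CPM. The part of monocytes and macrophages in this difference was not tested. Among other ligands and receptors of neuropilins, 4 of 8 were higher and none lower. Vegfa, the vascular growth factor, was 1.63-fold higher (adjusted p = 0.00122). Tgfbr2, the most abundant of that list, was 1.62-fold, Tgfb1 1.23-fold and Tgfbr1 1.26-fold higher. The call of Tgfb1 was lost without P5 replicate 1 or 4 or 4-week replicate 1 or 4 (adjusted p = 0.0522, 0.0581, 0.05004 and 0.0739), and that of Tgfbr1 without P5 replicate 2 or 3 or 4-week replicate 3 or 4 (adjusted p = 0.0518, 0.0571, 0.0591 and 0.0731).

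Of 16 tested small GTPases and regulators at plexins, 2 were higher and 4 lower. The paralogs Farp1 and Farp2, exchange factors that bind class A plexins, went in opposite directions. Farp1 had 48.4 ± 13.1 CPM at P5 and 21.9 ± 5.44 at 4 weeks, and Farp2 5.65 ± 0.639 and 12.04 ± 0.847 (± SD over 4 libraries per age, adjusted p = 0.00205 and 0.00268). Sh3bp1, a Rac GTPase-activating protein bound to Plxnd1, was 1.43-fold higher. Mras, an R-Ras relative, was 3.41-fold lower, Arhgap35, a GTPase-activating protein, 1.35-fold lower, and Arhgef12, an exchange factor at class B plexins, 1.30-fold lower. Rac1, the most abundant of this list, averaged 375 ± 21.0 CPM at P5 and 325 ± 33.2 at 4 weeks (± SD over 4 libraries per age), and did not pass the test (adjusted p = 0.117).

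Cytoskeletal effectors and kinases had 3 of 18 higher and 4 lower. The MICAL proteins oxidise actin downstream of plexins, and their genes split: Mical1 was 1.74-fold and Mical2 2.25-fold higher at P5, and Mical3 1.42-fold and the MICAL-like gene Micall1 1.42-fold lower. Cfl1, the actin-severing cofilin, was 1.34-fold higher, and Limk1, the kinase that inactivates cofilin, 1.31-fold lower. Fer, a plexin-bound kinase, was 1.40-fold lower with overlap between the ages. Calls of Micall1 were lost without P5 replicate 3 or 4 or 4-week replicate 1 or 4 (adjusted p = 0.0604, 0.0587, 0.0577 and 0.0858), and those of Limk1 without P5 replicate 4 or 4-week replicate 4 (adjusted p = 0.0575 and 0.073). That of Fer was lost without each library other than P5 replicate 3 (adjusted p between 0.0545 and 0.127). Of 4 proteases that cut semaphorins or neuropilins, Adam10 was 1.23-fold higher, and none was lower. In the 6 libraries with Y-linked reads 9 of 52 tested partner genes were higher and 7 lower, beside 619 and 638 of 12594 genes tested. The calls lost there were those of Adam10, Cfl1, Tgfb1 and Tgfbr1 (adjusted p = 0.121, 0.0697, 0.0995 and 0.0791) and of Arhgef12, Micall1 and Limk1 (adjusted p = 0.0557, 0.0923 and 0.0691).

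The 4 receptor calls and that of Sema7a were kept under all 18 other settings tried for each gene, with log2 fold changes of -3.79 to -2.91 for Sema7a, -3.63 to -2.90 for Plxna4 and 1.12 to 1.29 for Plxnd1. Plxnb2 stayed between -0.69 and -0.38 and Plxnc1 between -0.43 and -0.32. The call of Sema6b was lost by intron reads alone, that of Sema4f in 9 of 17 settings and that of Sema4d in 12 of 18. In the 6 libraries with Y-linked reads, where P5 rests on replicates 2 and 4, Sema4d and Sema6b were higher, Sema7a lower, and the same 4 receptors were called.

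**Figure D4:**
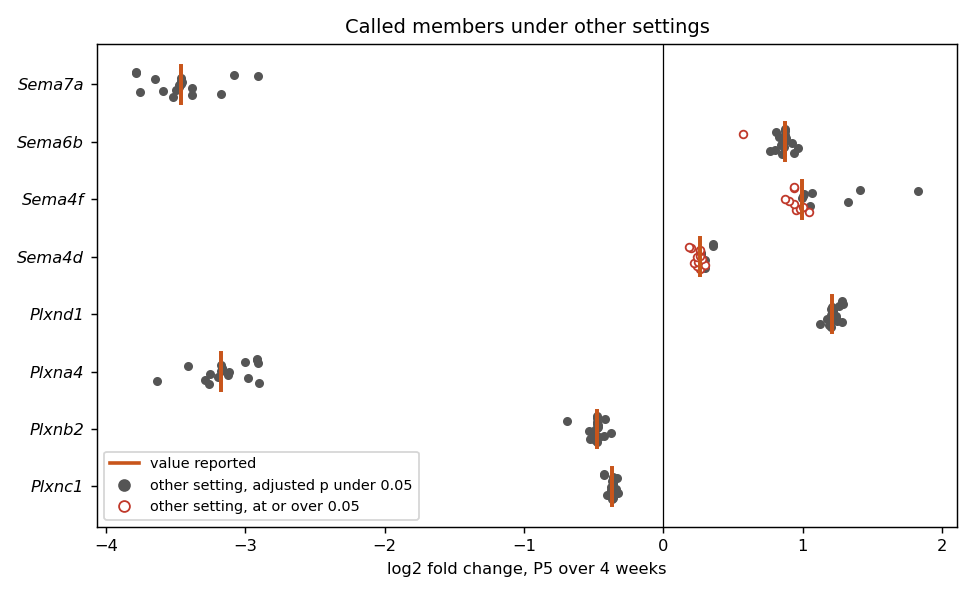
Log2 fold change, P5 over 4 weeks, of the 8 called members as reported (orange bar) and under every other setting (points), with open red points where the adjusted p was 0.05 or more. Open points are confined to Sema4d, Sema4f and Sema6b, and no point changes sign.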

How the data were processed

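Messenger RNA was profiled in 8 libraries of 100 sorted HSCs each, prepared with a Nextera XT kit, per the labels' protocols. This kit does not mark strand, and no molecular identifiers are named, so intervals cover counting error only. The deposited files give raw read counts per gene row for exons, introns and exon junctions, from trimmed reads per the file headers, and RPKM values made by the authors, which were not used. Reads were mapped to mm10 (per the submitters' processing notes), and which aligner and counter were used is not given in the sources used here.

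Total exon reads over 23457 rows with an exon model were used. Copies under numbered names were summed, leaving 22050 genes, and 24 gene names turned into dates in the file of P5 replicate 4 were restored from the shared row order. Age differences per gene come from edgeR 4.0.16 under R 4.3.3 (TMM, filterByExpr, quasi-likelihood fit, age alone, all 8 libraries), with Benjamini-Hochberg adjustment over 12235 genes. The scripts were tested on simulated data. SEs come from the F statistic and are approximate. DESeq2 1.42.0 and limma 3.58.1 (voom) were alternatives, beside the others named below. For intron shares an exact permutation test (two-sided) was run on members with at least 30 gene reads in every library (Python 3.11.15, scipy 1.17.1). Promoter windows and positions are RefSeq's on GRCm38.p6, and all 31 gene positions matched the files' contigs at the offset of their contig within 1000 bases.

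All family members are named. Of the partner lists the called genes and the most abundant member are named, and of marker lists the most abundant member. The members, the lists and the alternatives were chosen with earlier results of these data known. Other genes, such as Csf1r, Cx3cr1, C1qb, Cdh5 and Cxcl12, were named after their values were seen.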

Additional observations from a re-analysis of the deposited data

Results flagged for a closer look

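Of 97 sets of 4 libraries checked for members and called partner genes (at least 12 reads in the set), 7 held a library that lay far from the other 3, where chance gives about 1 in 20. Nrp1 reached 4.20 CPM in P5 replicate 2, against 0 to 0.162 CPM in the other P5 libraries. Nrp2 was at 0.323 CPM in P5 replicate 3, against 4.66 to 5.18 CPM in the others. Sema3d had 1.90 CPM in 4-week replicate 1, against 0 to 0.139 CPM in the others. Sema4f had 7.24 CPM in 4-week replicate 2, against 3.32 to 3.95 CPM in the others.

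Among partners, Vegfa had 57.7 CPM in 4-week replicate 2, against 42.7 to 43.9 CPM in the others. Tgfbr2 had 186 CPM in P5 replicate 2, against 160.3 to 163 CPM in the others. Fer had 44.9 CPM in P5 replicate 3, against 28.6 to 30.5 CPM in the others.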

How the results depend on the processing

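The replicate number pairs no samples by the labels, and same-numbered deviations correlated at -0.0309, -0.236, -0.0955 and -0.0517. With the replicate block, 577 genes were higher at P5 in place of 977, and 1 semaphorin in place of 3. With Y-linked reads as a covariate, 628 genes were higher and 608 lower, and in libraries with such reads alone 619 were higher and 638 lower. Without single libraries, 1 to 3 semaphorins were higher, 1 each without P5 replicate 2 or 3 or 4-week replicate 4. Uniquely mapped reads left 1 semaphorin higher, since Sema4f had no such reads and Sema4d missed the threshold (adjusted p = 0.0515). Intron reads gave 1 semaphorin higher and 2 lower, 2 receptors higher and 5 partner genes lower. Exon plus intron reads, and no filter on low counts, each gave 2 semaphorins lower. Semaphorin counts with copies not summed, an alternative chosen after seeing the data, were 3 higher and 1 lower. There the Sema4f row with 144 reads at P5 was called (log2 fold change 1.30, adjusted p = 0.0271). The row with 99 reads at P5 was not (log2 fold change 0.65, adjusted p = 0.281).

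Signs turned for genes near 0 and below the threshold, unless given otherwise. With intron reads and with exon plus intron reads the log2 fold change was 0.34 and 0.012 for Plxna1, 0.72 (called) and 0.42 for Plxna2, and 0.023 and 0.048 for Sema4c. With the Y-linked covariate and in libraries with such reads alone, it was 0.060 and 0.060 for Plxna3, 0.043 and 0.043 for Sema4a, 0.045 and 0.045 for Sema4b, and 0.068 and 0.069 for Sema4c. With the replicate block it was 0.012 for Sema4c. Without single libraries it ranged from -0.13 to 0.029 for Plxna3, -0.25 to 0.034 for Plxnb1, -0.14 to 1.08 for Sema3g, -0.60 to 0.039 for Sema4a, -0.078 to 0.028 for Sema4b and -0.17 to 0.12 for Sema4c. Sema6a also passed with DESeq2 (adjusted p = 0.0328) and the Y-linked covariate (adjusted p = 0.0404). With the replicate block Sema4d and Sema4f lost their calls (adjusted p = 0.13 and 0.0551), and partner calls went down to 9 higher and 6 lower, without Cfl1, Adam10, Tgfb1, Tgfbr1, Micall1, Fer and Limk1 (adjusted p between 0.052 and 0.0815). Cd72 lost its call with the Y-linked covariate (adjusted p = 0.0587). The causes were not tested. Depth limits the 9 untested members, which had at most 41 exon reads at P5 and 43 at 4 weeks.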

Other observations

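Flt1, Mst1r, Rnd3 and Trem2 had too few reads for the test and were named after their values were seen. The CPM of the ages did not overlap for Flt1, Mst1r and Rnd3, beside 21.2% of all tested genes. The lowest P5 library lay close to the highest 4-week library for Mst1r (1.36 and 1.26 CPM) and for Rnd3 (1.41 and 1.39 CPM). Rnd3, a small GTPase at plexins, had 17, 20, 14 and 10 reads at P5 and 8, 4, 2 and 10 at 4 weeks. Flt1, a VEGF receptor, had 7, 12, 12 and 5 reads at P5 and 2, 0, 0 and 0 at 4 weeks. Mst1r, a receptor tyrosine kinase of the Met family, whose members associate with class B plexins, had 10, 25, 20 and 23 reads at P5 and 8, 4, 4 and 0 at 4 weeks. Trem2, a receptor that signals with Tyrobp, had 0, 30, 1 and 0 reads at P5 and 1, 0, 0 and 0 at 4 weeks, and its P5 reads lay almost all in the library with high monocyte and macrophage markers.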
